A study of Homo sapiens with 12 samples.

Results

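The genes described here are those of the proteasome subunits and their assembly factors, taken as every row of the expression table whose symbol is PSMA to PSMG followed by a number. The rule found 45 of the 9529 genes in the table. They comprised 16 genes of the core particle (7 PSMA and 9 PSMB), 20 of the regulatory cap (6 PSMC and 14 PSMD), 5 regulators (4 PSME and PSMF1) and 4 assembly chaperones (PSMG). PSMA8, PSMB9 and PSMB11 were not analysed here.

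NOMO-1 is a human line derived from acute myeloid leukaemia and has features of monocytes. Its cells carried either the control hairpin shNS or a hairpin against ALKBH5, an enzyme that removes methyl groups from adenosines in RNA. Hairpins were delivered by lentivirus and the cells were selected with puromycin, so every group shares both steps. Poly(A) RNA was taken 0, 8 or 12 h into actinomycin D, a drug that blocks transcription. The 12 libraries form 6 groups of 2. An shNS group holds 2 replicates and a knockdown group holds 1 library of each of 2 hairpins, called line D and line E after the column headers. Which of the labelled hairpins each letter stands for could not be settled from the labels, and each line stands for 1 hairpin in 1 transduced population.

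The proteasome is the protease that degrades proteins marked with ubiquitin. Its barrel-shaped core is built of outer alpha rings (PSMA), which gate entry, and inner beta rings (PSMB), which cut peptide bonds. The cap placed on the barrel recognises ubiquitin, unfolds the substrate with a ring of ATPases (PSMC) and removes the ubiquitin chain with its PSMD subunits. PSME proteins are alternative activators, PSMF1 is a regulator first known as an inhibitor, and PSMG proteins help to assemble the alpha ring. Leukaemia and myeloma cells are a setting in which the core is a known drug target, and transcription of its genes is known to be raised by the factor NFE2L1 through antioxidant response elements.

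The core of that element, TGACNNNGC, was searched on both strands in the 250 bases before the start site of each gene in the RefSeq promoter table (GRCh38.p14). Of the 39 members with an entry, 12 held a match (30.8%). Among genes with an entry, 16.6% of 7277 in the expression table and 13.2% of all 27305 held one. PSMA7, PSMB1, PSMB6, PSMB7, PSMD4 and PSMG3 had no entry. The 4 windows printed next are those of matches that overlap no annotated exon, shown because this element, of the 3 searched, had the widest gap in share between members and the table. Each is written 5′ to 3′ on the strand of its gene with the match in capitals.
PSMB3: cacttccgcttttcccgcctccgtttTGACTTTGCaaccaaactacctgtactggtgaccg
PSMD9: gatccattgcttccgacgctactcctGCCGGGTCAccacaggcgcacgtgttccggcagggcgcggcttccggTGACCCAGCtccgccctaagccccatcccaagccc
PSMD12: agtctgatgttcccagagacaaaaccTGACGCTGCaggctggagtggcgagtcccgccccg
PSME1: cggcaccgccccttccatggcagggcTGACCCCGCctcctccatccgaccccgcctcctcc
The windows lie at chr17:38752611-38752671 on the plus strand (PSMB3), chr12:121888615-121888722 on the plus strand (PSMD9), chr17:67366708-67366768 on the minus strand (PSMD12) and chr14:24136082-24136142 on the plus strand (PSME1). PSMD9 has 2 matches, the first of them on the opposite strand. The other matches were in PSMA4, PSMC5, PSMD3, PSMD5, PSME2, PSME4, PSMG1 and PSMG2. For comparison, CCAAT was found in 17 of the 39 members (43.6%, against 41.7% of genes of the table) and CACGTG in 3 (7.69%, against 12.3%). A match is a stretch of letters and not a measured site.

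The deposited signal holds no counts, so read depth is unknown. Summed over genes it was 826000 to 953211 at 0 h and 143765 to 193639 at 12 h, while the median ERCC spike-in was 29.9 to 33.1 in the 12 libraries. Values are therefore read per unit of spike-in, and a fall common to all RNA cannot be told apart from the decay of 1 mRNA. Single spike-ins were less steady, 3 to 8 of 46 per line ending at 12 h under 50% of their 0 h signal. Because it is not known whether the signal is per length, levels were compared between libraries and not between genes. ALKBH5 signal at 0 h was 84.3 and 78.6 in the control replicates against 25.4 (D) and 21.2 (E). Of 17 monocytic leukaemia markers 13 were in the table, with a summed 0 h signal of 3148 and 3173 in the control replicates against 6014 (D) and 8210 (E). MPO, CSF1R, CD14 and S100A8 were the markers absent. A sum can rest on a few strong genes, so it does not show that the markers as a group were higher. Of 6 lymphoid markers 2 were listed (summed signal 273 to 442), and none of the erythroid, epithelial or megakaryocyte markers. Whether the higher monocytic sum has a part in the differences between groups was not tested. In bulk RNA a shift in the mix of cells cannot be told apart from a change within cells. The treatment protocol in the labels speaks of an FTO virus and of 2 other drugs. Sample titles name ALKBH5 hairpins and actinomycin D, and groups were taken from them.

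Before actinomycin D, proteasome genes stood higher in both knockdown lines than in control, though no single member passed the test. In line D the median member was at 161% of the mean of the control libraries, where the median of all genes was at 124%. In line E the median member was at 129%, and all genes at 114%. All 16 core and all 20 cap genes stood above the control mean in both lines, while PSME1, PSMF1 and PSMG2 were closest to control. The members summed to 0.525% and 0.559% of the total gene signal in shNS against 0.802% (D) and 0.650% (E).

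At 0 h both knockdown libraries lay above both control libraries for 39 of 45 members (86.7%), where 46.4% of all genes did so, and both lay below for 0 of 45, where 6.88% of all genes did. All 16 core genes, 18 of 20 cap genes, 2 of 5 regulators and 3 of 4 chaperones were among the 39. The 6 members with overlapping groups were PSMC6, PSMD5, PSME1, PSME4, PSMF1 and PSMG2. In log2(signal + 1), a scale on which changes of weakly expressed genes come out too small, the median difference was 0.55 for the members and 0.23 for all genes, and 41 of 45 members were above the latter. With libraries rescaled by median-of-ratios these medians were 0.29 and -0.01, both lower by about the same amount.

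limma called 0 of 45 members at a Benjamini-Hochberg adjusted p under 0.05, where 1.47% of all genes were called. At an unadjusted p under 0.05 it was 24 of 45 members and 22.2% of all genes. The lowest adjusted p was 0.0635 for PSMD3, a subunit of the lid of the cap, at 0.79 (SE 0.19). The largest difference was that of PSMD12, another lid subunit, at 1.00 (SE 0.26, adjusted p = 0.0761), with signals of 21.3 and 18.0 in the control replicates against 54.5 (D) and 29.4 (E). Its groups did not overlap, but the knockdown lines stood further from each other than line E stood from control. With line D alone as the knockdown 40 members (88.9%) were called higher, against 43.4% of all genes, and with line E alone 13 (28.9%, against 18.6%). Each of these sets 1 knockdown library against 2 controls, takes its spread from the control replicates only and assumes that the lone library varies like them. In the model of all groups, which adds the spread between lines at 8 h and 12 h, the count without line E at 0 h was 9 (20%, against 10% of all genes higher). It was 1 or 2 (2.22% or 4.44%, against 2.34% to 3.66%) without any one of the 8 h or 12 h knockdown libraries.

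**Figure D1:**
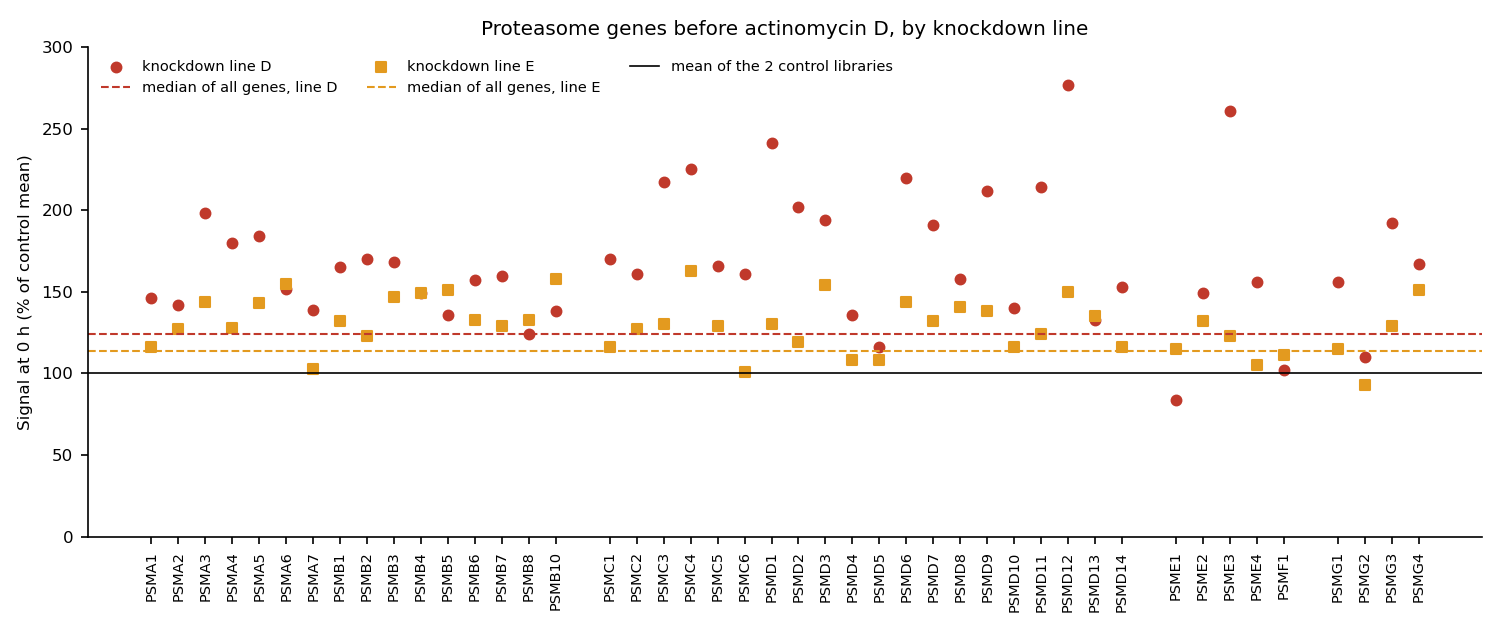
Signal of each proteasome gene at 0 h in knockdown line D (circles) and line E (squares) as a percent of the mean of the 2 control libraries, by class, with the median of all genes in each line dashed. Most members lie above the 100% line in both lines, PSMD12 reaching 277% in line D and PSME1 falling to 83.9%.

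After transcription was blocked, the members fell in an order that was much the same in the control replicates and in lines D and E. Control libraries were matched over time by replicate number, and each replicate is counted as a line in the percents left. At 8 h the median member kept 48.7% and 48.3% of its 0 h signal in the control replicates, 29.5% (D) and 36.1% (E). The medians of all genes were 42.2%, 41.1%, 23.9% and 33.6%. The median member thus kept more than the median gene by 8 h in each line. By 12 h it kept less, 10.8% and 11.5% in control, 10.3% (D) and 9.45% (E), where all genes stood at 11.9%, 12.9%, 10.9% and 10.7%. Between 8 and 12 h the median member kept 23.5% and 25.3% in control, 36.4% (D) and 29.9% (E), against 30.0%, 32.9%, 48.1% and 32.9% for all genes.

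By class, the PSMG chaperones had the least left. At 8 h the core genes had medians of 52.1% and 51.1% left in control, 33.7% (D) and 37.7% (E), and the cap genes 46.9%, 45.9%, 28.7% and 32.5%. Regulators kept 55.3%, 53.7%, 29.3% and 42.8%. Chaperones kept least, with 20.7%, 19.9%, 15.2% and 20.3%, and 0 of the 4 was above the median of all genes in any line at 8 or 12 h. By 12 h the chaperone medians were 3.65% and 3.71% in control, 5.76% (D) and 7.01% (E). Ranked by percent left at 12 h, the 45 members gave a Spearman rho of 0.99 between the control replicates and of 0.87 to 0.91 for the other pairs of lines. For all 9529 genes the same values were 0.97 and 0.82 to 0.92, so a stable order was not particular to the proteasome. The members' transcripts were short, with a median of 1579 bases where the median over 8752 genes was 3014. Across the 45 members, percent left at 12 h in control had a rho of 0.41 with GC content and -0.15 with transcript length (0.34 and -0.31 over all genes), across genes that share libraries.

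**Figure D2:**
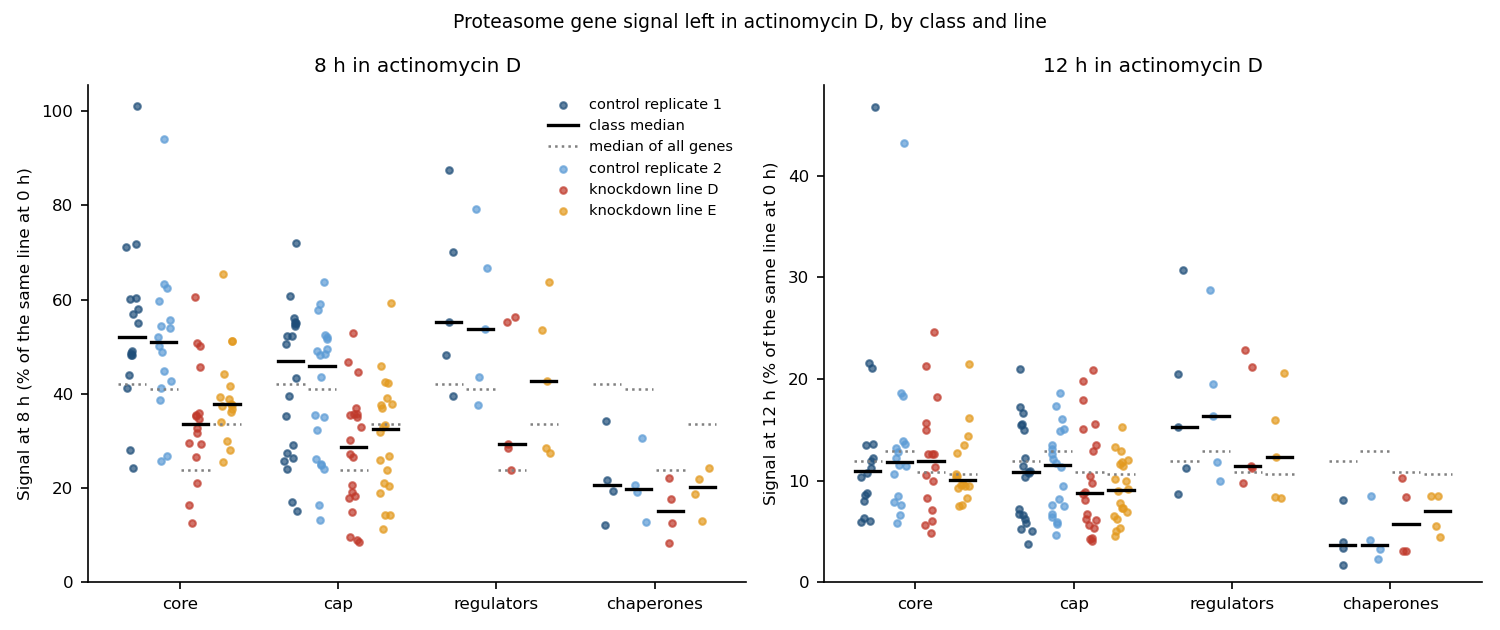
Percent of the 0 h signal of the same line left at 8 h (left) and 12 h (right), 1 point per gene, for control replicates 1 and 2 and knockdown lines D and E, with class medians as bars and the median of all genes dotted. PSMG chaperones sit under the dotted line in every replicate and line at both times, and the highest core point is PSMA7, at 101% and 94.1% in control at 8 h.

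The limma test across all genes called 42 of 45 members lower at 8 h than at 0 h in control, where 82.2% of all genes were called lower, and 45 of 45 in the knockdown, where 96% were. PSMA7, PSMD2 and PSME1 were the 3 not called in control. At 12 h all 45 were called lower in control (99.5% of all genes) and in knockdown (99.6%). These falls are per unit of spike-in. Scaled instead by median-of-ratios, which removes a fall common to most genes, 7 members were called higher and 7 lower at 8 h in control (15.6% each, against 18.9% and 23.6% of all genes). In knockdown it was 10 and 7 (22.2% and 15.6%, against 21.3% and 23.7%). At 12 h it was 6 higher and 15 lower in control (13.3% and 33.3%, against 24.6% and 27%) and 6 and 12 in knockdown (13.3% and 26.7%, against 22.1% and 24.2%).

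At 8 h, 42 of 45 members had a lower percent left in both knockdown lines than in both control replicates, and so did 82.5% of all genes. The 3 others were PSMB5, PSMG2 and PSMG4. A higher percent left in both was seen for 0 members and 0.903% of all genes. By 12 h 11 of 45 (24.4%) were still lower in both lines, where 41.2% of all genes were, and 4 (8.89%, against 12.1%) were higher. Those 4 were PSMB10, PSMD11, PSMG2 and PSMG4. The difference of the change between knockdown and control had a median of -0.48 at 8 h for the members and for all genes alike, and of -0.15 and -0.19 at 12 h. limma called 0 members and 0% of all genes for this difference at either time. At an unadjusted p under 0.05 there were 4 members (8.89%, against 16.4% of all genes) at 8 h and 2 (4.44%, against 3.54%) at 12 h. That model treats the libraries of a line at different times as separate. With the replicate number or line as a block, 10 members (22.2%) were called at 8 h, all with the larger fall in knockdown, where 26.1% of all genes were called in that direction, and 1 (2.22%, against 2.19%) at 12 h.

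Averaged over the 3 times, 15 of 45 members were higher in the knockdown (33.3%), where 11.9% of all genes were called higher, and 0 were lower, where 9.14% were. They were 6 core genes, 7 cap genes and 2 chaperones, and none of the regulators. The median was 0.37 for the members and 0.02 for all genes, and median-of-ratios scaling left these at 0.36 and 0.01. The named rises ran from 0.41 for PSMB4 (SE 0.13, adjusted p = 0.0354) to 0.74 for PSMG4 (SE 0.12, adjusted p = 0.000575, 6 against 6 libraries). This test counts the 3 times of a line as separate libraries. With 1 mean per line, PSMG4 was the 1 member still called, and 490 genes (5.14%) were called in all. The count fell to 6 (13.3%) without shNS replicate 1 at 0 h or 12 h, or shNS replicate 2 at 0, 8 or 12 h, where 7.1% to 8.16% of all genes were called higher. It fell to 7 (15.6%) without line D at 0 h or 12 h, against 10% and 8.14%. Without all 0 h libraries, a choice made after seeing the data, it was 4 (8.89%, against 4.91%). Under median-of-ratios scaling it was 22 higher (48.9%, against 19.4%) and 1 lower (2.22%, against 19.1%). Line D alone gave 28 higher (62.2%, against 18.9%) and 1 lower (2.22%, against 17.4%), and line E alone 13 higher (28.9%, against 22.4%) and 1 lower (2.22%, against 19.8%).

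By time, both knockdown libraries lay above both control libraries for 9 of 45 members at 8 h (20%, against 10.4% of all genes) and for 28 at 12 h (62.2%, against 33%). They lay below for 4 members at each time (8.89%), where 42.8% of all genes did at 8 h and 25% at 12 h. At 8 h the 4 were PSMA7, PSMD14, PSME1 and PSMF1, and at 12 h PSMA7, PSMD10, PSME1 and PSMF1. Of the 15 members called across times 14 had a promoter entry, and 3 of these (21.4%) held the searched element, PSMB3, PSMD3 and PSMD9. Of the members not called, 9 of 25 (36%) held it.

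**Figure D3:**
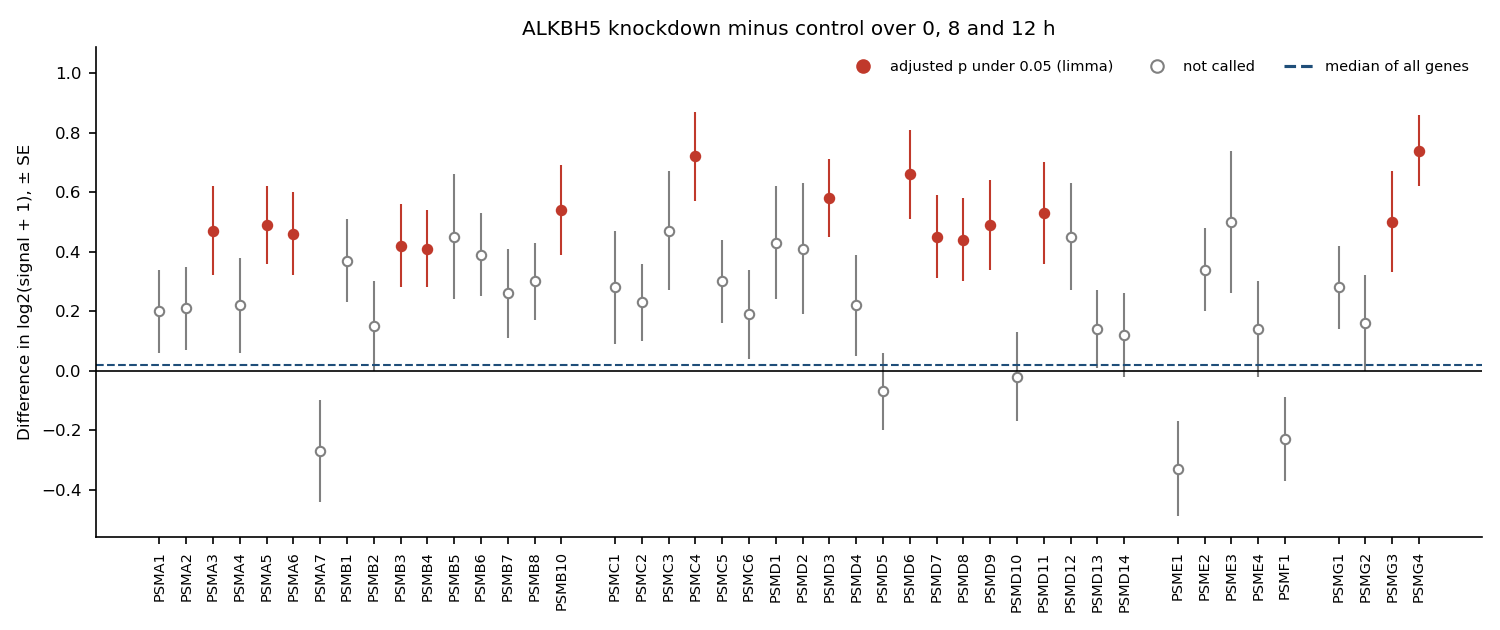
Difference between knockdown and control averaged over 0, 8 and 12 h for each proteasome gene, in log2(signal + 1) with its standard error. Filled points passed an adjusted p of 0.05 and the dashed line is the median of all genes, 0.02. The 15 filled points run from 0.41 to 0.74, and the lowest point is PSME1 at -0.33.

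Among the alpha ring genes, PSMA7 (chromosome 20, 62136735 to 62143440, minus strand, GRCh38) kept more of its signal than any other member in each line. Its signal was 337 and 336 in the control replicates against 468 (D) and 348 (E) at 0 h. By 8 h it was 342 and 316 against 283 and 228, and by 12 h 157 and 145 against 115 and 74.9. Both knockdown lines were thus above control at 0 h and below it at both later times. PSMA7 kept 46.7% and 43.2% in the control replicates at 12 h, and 24.6% and 21.5% in lines D and E. The difference of the 12 h change was -0.96 (SE 0.34), the largest fall among the members, but its adjusted p was 0.985. PSMA3, PSMA5 and PSMA6, the 3 alpha genes called across times, rose by 0.47 (SE 0.15), 0.49 (SE 0.13) and 0.46 (SE 0.14). PSMA5 was called in 19 of 21 alternatives, PSMA3 in 12 and PSMA6 in 11. PSMA6 has 4 pseudogenes in the annotation, and the assignment of reads shared with them was not given in the sources used here. PSMA1, PSMA2 and PSMA4 stood at 0.20 to 0.22 across times and were not called.

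Of the beta ring genes, 3 encode the constitutive catalytic subunits. PSMB5 (chromosome 14, 23016543 to 23035230, minus strand), the chymotrypsin-like subunit and the main target of bortezomib, had the steepest fitted fall of the core genes in control by 12 h, at -3.76 in log2(signal + 1). Its signal at 0 h was 70.0 and 59.4 in the control replicates against 87.9 (D) and 97.8 (E). By 8 h it was 16.9 and 15.3 against 11.1 and 29.2, and by 12 h 4.22 and 3.50 against 4.30 and 10.2. Line D was under both controls at 8 h and beside them at 12 h, while line E stayed above them. Line D was the lower of the lines across times, at -0.85 (SE 0.18, adjusted p = 5.5e-05), and PSMB5 was called in all 17 alternatives. Against control it stood at 0.45 (SE 0.21, adjusted p = 0.129).

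For the other catalytic subunits lines D and E had the same direction at 0 h and 12 h. PSMB6, the caspase-like subunit, had signals of 96.5 and 87.6 in the control replicates against 145 (D) and 122 (E) at 0 h, 58.1 and 52.2 against 66.0 and 54.0 at 8 h, and 13.0 and 12.2 against 22.7 and 15.5 at 12 h. PSMB7, the trypsin-like subunit, had 163 and 158 in the control replicates against 258 (D) and 208 (E) at 0 h, 98.7 and 88.0 against 91.6 and 81.7 at 8 h, and 19.5 and 19.3 against 32.5 and 19.8 at 12 h. For both genes the groups were apart at 0 h and 12 h and overlapped at 8 h. Across times PSMB6 stood at 0.39 (SE 0.14, adjusted p = 0.0551) and PSMB7 at 0.26 (SE 0.15, adjusted p = 0.227).

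PSMB8 and PSMB10 encode subunits that replace constitutive ones in the immunoproteasome, the form induced by interferon. PSMB10 (chromosome 16, 67934502 to 67937087, minus strand) had signals of 42.3 and 36.4 in the control replicates against 54.2 (D) and 62.3 (E) at 0 h, 20.4 and 18.9 against 18.7 and 26 at 8 h, and 3.73 and 4.15 against 8.11 and 8.41 at 12 h. The groups overlapped at 8 h and were apart at 0 h and 12 h. Across times it rose by 0.54 (SE 0.15, adjusted p = 0.0141), and 18 of 21 alternatives called it. PSMB8 had 119 and 106 in the control replicates against 140 (D) and 149 (E) at 0 h, 52.3 and 47.7 against 49.4 and 58.1 at 8 h, and 12.3 and 11.4 against 17.6 and 15.7 at 12 h, and stood at 0.30 across times (SE 0.13, adjusted p = 0.0946). Its locus overlaps PSMB8-AS1 and PSMB9 on the other strand, and use of strand in the counting was not given in the sources used here. Structural subunits PSMB3 and PSMB4 rose by 0.42 and 0.41 across times, called in 10 and 11 of 21 alternatives. PSMB3 was not called with line E alone as the knockdown. At 8 h PSMB3 and PSMB4 kept 71.1% and 71.9% in shNS replicate 1 and 62.4% and 63.3% in shNS replicate 2. In line D it was 50.2% and 50.7%, and in line E 51.2% and 51.3%. By 12 h both genes were down to between 14.4% and 21.6%.

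In the cap, the ATPase gene PSMC4 (chromosome 19, 39971005 to 39981441, plus strand) had the largest rise. Its signals were 77.1 and 72.9 in the control replicates against 169 (D) and 122 (E) at 0 h, 40.2 and 35.7 against 59.9 and 45.9 at 8 h, and 12.0 and 11 against 26.3 and 15.7 at 12 h. The knockdown libraries were above the control libraries at each time, and line D was above line E. PSMC4 rose by 0.72 across times (SE 0.15, adjusted p = 0.00376) and passed in 20 of 21 alternatives. The 1 that missed it was the fit with 1 mean per line, with an adjusted p of 0.0738. PSMC6, another ATPase of the ring, had the least left of the cap genes in control, 3.75% and 4.65% at 12 h. Its 4.09% (D) and 4.59% (E) were within that range.

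The lid genes PSMD6, PSMD3 and PSMD11 rose across times as well. PSMD6 (chromosome 3, 64010549 to 64024010, minus strand) had 113 and 108 in the control replicates against 243 (D) and 159 (E) at 0 h, 29.1 and 27.2 against 43.4 and 32.4 at 8 h, and 7.07 and 7.27 against 15 and 11 at 12 h. Its rise was 0.66 (SE 0.15, adjusted p = 0.00501), with both knockdown libraries above control at each time. PSMD3 had 82.8 and 75.5 in the control replicates against 154 (D) and 122 (E) at 0 h, 35.8 and 32.8 against 41.9 and 46.2 at 8 h, and 8.57 and 8.84 against 13.4 and 13.9 at 12 h. It too was apart from control at each time, by 0.58 (SE 0.13, adjusted p = 0.00513), and the lines were close to each other at the later times. Both genes were called in 20 of 21 alternatives, and the 1 that missed them was the fit with 1 mean per line. PSMD11 had 47.6 and 43.9 in the control replicates against 97.8 (D) and 57.0 (E) at 0 h, 12.6 and 10.6 against 17.9 and 10.8 at 8 h, and 2.79 and 2.50 against 6.09 and 3.53 at 12 h. Line E was among the controls at 8 h. The PSMD11 rise of 0.53 (SE 0.17, adjusted p = 0.034) was called in 10 of 21 alternatives.

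PSMD9, PSMD5 and PSMD10 encode chaperones of the ATPase ring that are numbered with the cap subunits. PSMD9 had 12.8 and 10.9 in the control replicates against 25.1 (D) and 16.4 (E) at 0 h, 7.07 and 6.46 against 9.31 and 6.95 at 8 h, and 2.00 and 1.47 against 3.80 and 2.19 at 12 h, and rose by 0.49 (SE 0.15, adjusted p = 0.0279). PSMD5 and PSMD10 stood at -0.07 and -0.02 across times. PSMD7 and PSMD8, both lid subunits, rose by 0.45 and 0.44. PSMD7 was called in 11 of 21 alternatives, and PSMD8 and PSMD9 in 12 each. With line E alone as the knockdown PSMD7 and PSMD9 were not called. PSMD8 kept the most among cap genes in control at 12 h, 21.0% and 18.6%. PSMD14, the deubiquitinase of the lid, stood at 0.12 (SE 0.14), and the ubiquitin receptor PSMD4 at 0.22 (SE 0.17).

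The regulators gave no call against control, and their differences ran in both directions. PSME1 and PSME2 encode the subunits of the activator that interferon induces. PSME1 (chromosome 14, 24136158 to 24138967, plus strand) had 138 and 127 in the control replicates against 111 (D) and 153 (E) at 0 h, 121 and 101 against 61.6 and 97.4 at 8 h, and 42.3 and 36.5 against 25.4 and 31.5 at 12 h. Line D was below control at each time, and line E was above it at 0 h and below it later. PSME2 had 119 and 106 in the control replicates against 168 (D) and 149 (E) at 0 h, 83.6 and 70.6 against 94.5 and 79.7 at 8 h, and 24.5 and 20.7 against 35.6 and 23.8 at 12 h. Across times PSME1 stood at -0.33 (SE 0.16, adjusted p = 0.137) and PSME2 at 0.34 (SE 0.14, adjusted p = 0.0903), so the pair had opposite signs without either being called.

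PSME3, which encodes a nuclear activator, was high in line D. Its signals were 43.8 and 43.7 in the control replicates against 114 (D) and 53.8 (E) at 0 h, 21.2 and 19.0 against 32.7 and 14.8 at 8 h, and 4.92 and 5.16 against 13.1 and 4.47 at 12 h. Line E was above control at 0 h and below it at 8 and 12 h. PSME4, an activator known from sperm and from the DNA damage response, had 50 and 41.9 in the control replicates against 71.6 (D) and 48.3 (E) at 0 h, 19.8 and 15.8 against 17.1 and 13.8 at 8 h, and 4.33 and 4.22 against 6.98 and 4.05 at 12 h. PSMF1 had 33.1 and 29.3 in the control replicates against 31.7 (D) and 34.7 (E) at 0 h, 18.3 and 15.7 against 9.29 and 14.8 at 8 h, and 5.08 and 4.82 against 3.55 and 4.28 at 12 h. PSMF1 was thus beside control before the drug and below it in both lines afterwards, with an overall difference of -0.23 (SE 0.14, adjusted p = 0.269).

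The 4 PSMG genes kept the least of their signal among the classes. This did not hold for all chaperones of the proteasome. Of those counted with the cap, PSMD9 and PSMD10 kept a mean of 14.5% and 12.7% in control at 12 h, and PSMD5 5.61%. PSMG2 (chromosome 18, 12658043 to 12725740, plus strand), the partner of PSMG1, had 107 and 87.8 in the control replicates against 107 (D) and 90.6 (E) at 0 h, 12.9 and 11.3 against 8.84 and 11.9 at 8 h, and 1.87 and 1.99 against 3.34 and 4.07 at 12 h. It kept 1.75% and 2.27% in the control replicates at 12 h, the least of the 45 members in both. In lines D and E it kept 3.13% and 4.5%. PSMG1 had 96.5 and 85.2 in the control replicates against 142 (D) and 104 (E) at 0 h, 21.1 and 17.5 against 17.9 and 19.5 at 8 h, and 3.25 and 3.56 against 4.40 and 5.80 at 12 h. It stood at 0.28 across times (SE 0.14, adjusted p = 0.164).

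PSMG4 (chromosome 6, 3231403 to 3303373, plus strand), the partner of PSMG3, had the largest rise of the 45 genes across times. Its signals were 15 and 17.8 in the control replicates against 27.5 (D) and 24.7 (E) at 0 h, 2.92 and 3.43 against 4.89 and 5.41 at 8 h, and 0.590 and 0.579 against 2.30 and 2.09 at 12 h. The knockdown libraries were above the control libraries at each time and the lines were close to each other. At 12 h lines D and E were at 394% and 357% of the control mean. The lowest gene of each library was at 0.338 to 0.433 at 12 h, so the control values were near the low end of the table. PSMG4 passed in all 21 alternatives, at 0.69 to 1.03 with a highest adjusted p of 0.0203. It overlaps SLC22A23 and TUBB2B on the other strand. PSMG3 had 55.5 and 50.2 in the control replicates against 101 (D) and 67.9 (E) at 0 h, 19.1 and 15.4 against 22.5 and 16.5 at 8 h, and 4.49 and 4.28 against 10.4 and 5.75 at 12 h. It rose by 0.50 (SE 0.17, adjusted p = 0.0367), called in 10 of 21 alternatives.

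**Figure D4:**
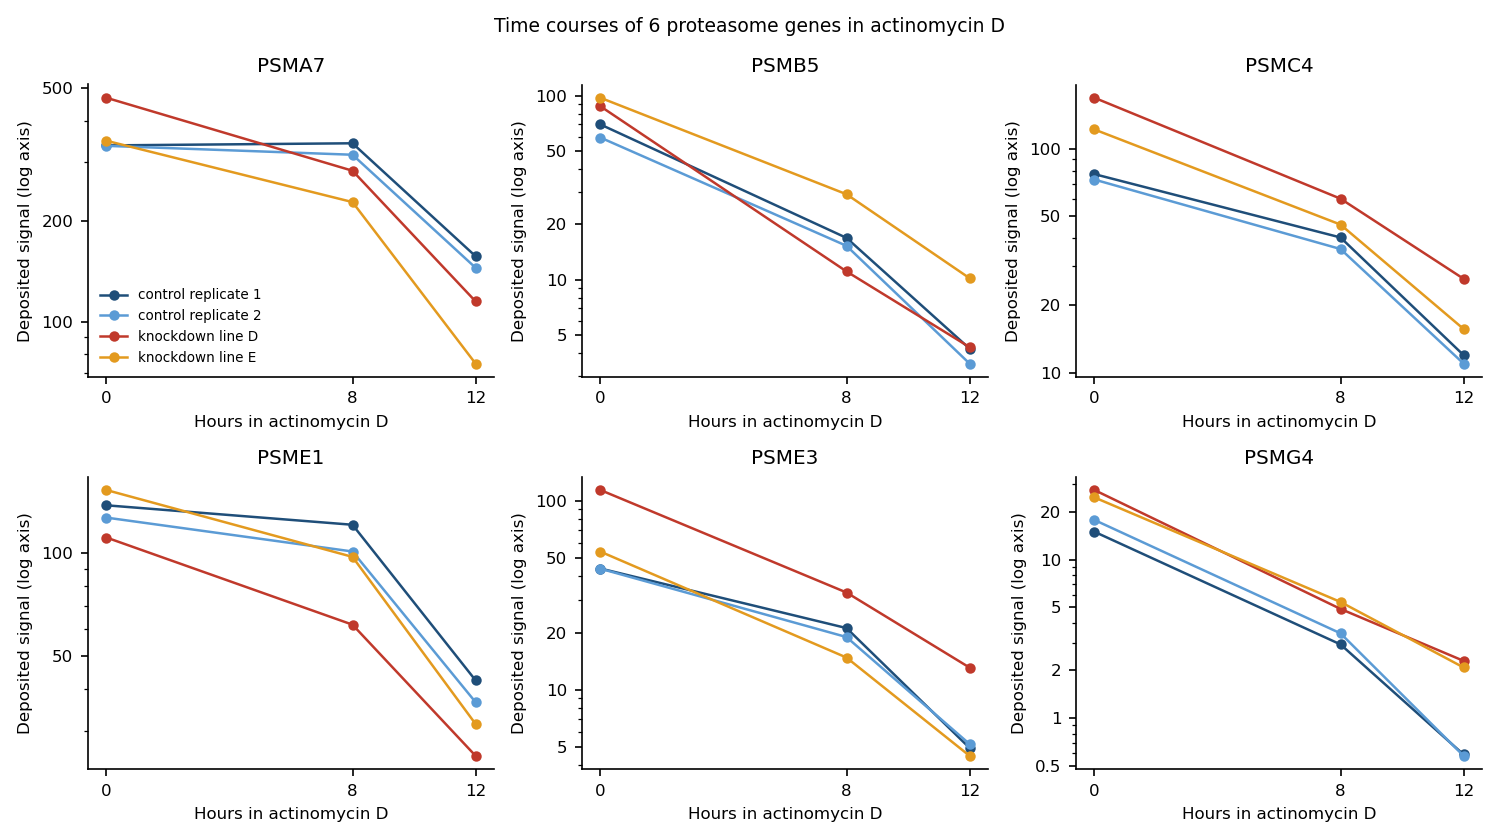
Deposited signal of 6 proteasome genes at 0, 8 and 12 h in actinomycin D, on log axes, in the 2 control replicates (blue) and in knockdown lines D (red) and E (orange). PSMA7 crosses from above control to below it, PSMG4 and PSMC4 stay above control in both lines, and PSMB5, PSME1 and PSME3 differ between lines D and E.

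Between the hairpin lines the widest differences were those of PSME3 and of several cap genes. In limma, 14 of 45 members were called higher in D than in E (31.1%, against 14.2% of all genes) and 2 lower (4.44%, against 14.9%). Of the 14, 11 were among the 20 cap genes, 2 were regulators and 1 a chaperone, and none of the 16 core genes was called higher, though 12 of them had a positive difference. The medians were 0.47 for the cap, 0.23 for the core and 0.02 for all genes. Whether cap and core differ in this respect was not tested.

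PSME3 had the largest difference, 1.18 (SE 0.18, adjusted p = 7.13e-09). PSMD2, a large cap subunit that docks ubiquitin shuttles, followed at 1.08 (SE 0.18, adjusted p = 1.53e-07), with signals of 133 and 124 in the control replicates against 260 (D) and 153 (E) at 0 h, 80.6 and 71.9 against 122 and 59.7 at 8 h, and 22.9 and 21.5 against 51.5 and 18.0 at 12 h. Like PSME3, PSMD2 was above control in line D at each time, and in line E above it at 0 h and below it later. The scaffold PSMD1 stood at 0.85, with 45.1 and 42.3 in the control replicates against 105 (D) and 56.6 (E) at 0 h, 22.8 and 20.5 against 31.8 and 18.7 at 8 h, and 4.90 and 5.13 against 9.36 and 4.41 at 12 h. It had the same pattern. Of the ATPases, PSMC3 had 37.6 and 33.0 in the control replicates against 76.6 (D) and 46.1 (E) at 0 h, 19.6 and 17.1 against 27.5 and 14.7 at 8 h, and 4.29 and 4.15 against 9.85 and 4.25 at 12 h. PSMC1 had 134 and 130 in the control replicates against 224 (D) and 154 (E) at 0 h, 73.3 and 64.4 against 100 and 51.2 at 8 h, and 22.4 and 20.9 against 40.0 and 17.9 at 12 h. Both ATPase genes stood at 0.87, and the annotation lists 13 pseudogenes of PSMC1.

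The difference between lines rests on 3 libraries each, from 1 line each, so a hairpin effect and a difference between populations cannot be told apart. Its adjusted p-values use a spread that limma pooled over genes and do not measure that of each gene. The count of 16 fell to 7 (15.6%) without line D at 12 h, where 21.6% of all genes were called, so the members were then below the background. It was also 7 without line E at 8 h (against 15.4%) and 10 (22.2%, against 20.9%) without line E at 12 h, both near the background. Of the calls higher in D, 6 (13.3%) were left in each of the first pair of settings, against 7.73% and 6.92% of all genes, and 8 (17.8%, against 8.22%) in the other. Under median-of-ratios scaling the count was 29 (64.4%, against 52.9%), with 25 higher (55.6%, against 28%) and 4 lower (8.89%, against 24.9%). PSME3, PSMD2, PSMC3, PSMC1, PSMD1, PSMD11 and PSMB5 were called in all 17 alternatives.

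**Figure D5:**
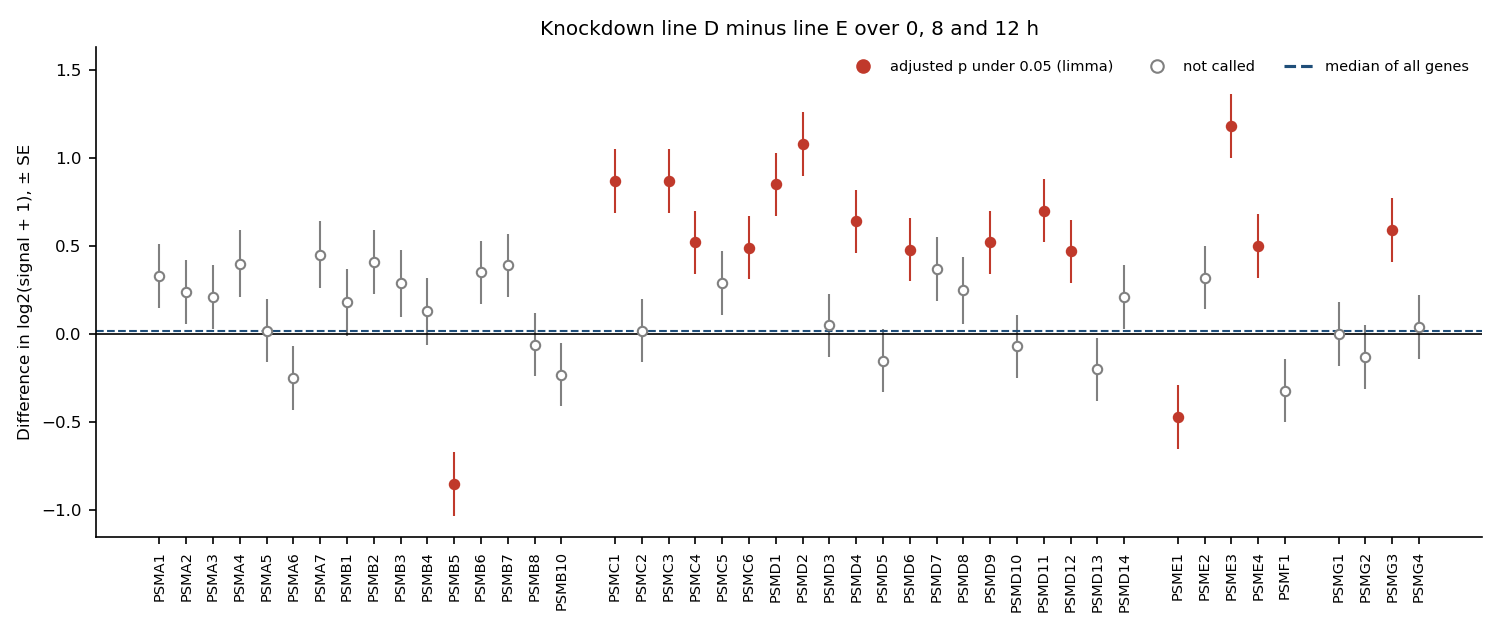
Difference between knockdown lines D and E averaged over 0, 8 and 12 h for each proteasome gene, in log2(signal + 1) with its standard error, filled where the adjusted p was under 0.05, with the median of all genes dashed. The filled points are mostly cap genes on the positive side, led by PSME3 at 1.18 and PSMD2 at 1.08, with PSMB5 at -0.85 and PSME1 at -0.47 below zero.

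Other genes of the pathway were read from a list of 31 measured subunits without a PSM name, cofactors, assembly and transcription factors, and genes of ubiquitin supply and shuttling. None was called at 0 h, and across times 2 were called higher and 2 lower, where 11.9% and 9.14% of all genes were. The ubiquitin receptor ADRM1 rose by 0.70 (SE 0.22, adjusted p = 0.0324) and VCP, the unfoldase that passes substrates to the proteasome, by 0.76 (SE 0.15, adjusted p = 0.00239). ADRM1 had 15.8 and 13.4 in the control replicates against 31.3 (D) and 13.6 (E) at 8 h. At 12 h it had 4.53 and 4.19 against 13.4 and 4.86, so line E was near control at both later times. VCP was above control in both lines at each time. NGLY1, which processes NFE2L1, fell by 0.49 and ZFAND5, a proteasome-binding protein, by 0.55. NFE2L1 itself had 47.5 and 44.4 in the control replicates against 82.9 (D) and 63.5 (E) at 0 h, and stood at 0.37 across times (SE 0.14, adjusted p = 0.0654). POMP, which completes the core with the PSMG proteins, stood at 0.22 (SE 0.19, adjusted p = 0.412). The list's median across times was -0.06, where that of the 45 members was 0.37. Between the lines 4 of the 31 were higher in line D, among them ADRM1 at 1.13, and 4 were lower, where 14.2% and 14.9% of all genes were, so both counts were near the background.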

How the data were processed

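The authors deposited an expression signal per gene symbol for 12 libraries, with no counts and no value of 0. The libraries were made with a stranded poly(A) kit, per the labels' design text, and STAR, RSEM and GRCh38 appear in the submitters' processing notes without versions. The unit behind the authors' signal was not given in the sources used here, nor was its scaling, which appears to follow the ERCC spike-ins. From it, log2(signal + 1) of all 9529 genes (none fell under a mean of 1) was fitted with limma 3.58.1 (R 4.3.3, trend on). A gene was called where its Benjamini-Hochberg adjusted p was under 0.05. Models of 6 group means, of time plus knockdown and of time plus line were used. The procedure was tested on simulated data whose noise was independent between libraries. That test cannot show how the fits behave where libraries of a line vary together. Tables and figures were made in Python with pandas, and gene positions are from GENCODE 29.

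Percent left divides a later signal by the 0 h signal of that replicate or line. Control replicates were matched between times by their number alone. Members and lists were chosen with earlier results of these data known. Genes were named by a rule: catalytic and immunoproteasome subunits, called members up to 8 across times and 6 between lines, the most and least left of each class, and every regulator and chaperone. The labels do not state that replicates came from separate cultures. The p-values therefore reflect the spread among these libraries only, and it may be technical. For line D minus line E limma pooled that spread over genes, with an SE of 0.17 to 0.19 for the 31 related pathway genes. The p-values of that test thus do not measure the spread of each gene. Alternatives were filters of a mean of 5 and none, a pseudocount of 0.1, median-of-ratios and ERCC scaling, each line alone, 1 mean per line, the replicate block and leaving out each library. The fit with no filter repeats the main fit, because no gene fell under a mean of 1, and the tallies of alternatives include it.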

Additional observations from a re-analysis of the deposited data

Results flagged for a closer look

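The effect of knockdown against the shared controls differed between the hairpin lines for 16 members, by the limma test of line D minus line E over the 3 times on the log2(signal + 1) scale, n = 3 libraries per line. Among cap genes the difference was 1.08 for PSMD2, 0.87 for PSMC1 and for PSMC3, 0.85 for PSMD1, 0.70 for PSMD11 and 0.64 for PSMD4. It was 0.52 for PSMC4 and for PSMD9, 0.49 for PSMC6, 0.48 for PSMD6 and 0.47 for PSMD12. Among regulators it was 1.18 for PSME3, 0.50 for PSME4 and -0.47 for PSME1, and it was 0.59 for the chaperone PSMG3. PSMB5 was the 1 core gene, at -0.85. Of all genes 29.1% were called in this test, against 35.6% of the members. PSMC6, PSMD6 and PSMD12 were called in 8 of 17 alternatives each, PSME1 in 9 and PSME4 in 12. PSMD9 was called in 13, PSMC4 in 14, PSMD4 and PSMG3 in 15, and the remaining genes in all 17. The adjusted p-values of this test use a spread pooled over genes. Each line is 1 hairpin in 1 population, and what sets the lines apart was not tested.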

How the results depend on the processing

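Percents in parentheses are of all genes called under the same setting. At 0 h 40 members were called with line D alone as the knockdown (52.5%) and 13 with line E alone (21.8%), against 0 with both. Across times the 15 calls became 23 with median-of-ratios scaling (38.5%), 29 with line D alone (36.4%), 1 with 1 mean per line (5.14%) and 4 without the 0 h libraries (17.1%), the last added after seeing the data. Line D minus line E had 29 calls with median-of-ratios scaling (52.9%) against 16. That scaling also gave 14 and 17 calls at 8 h in control (42.5%) and knockdown (45%), with a median of the opposite sign, and 21 (51.6%) and 18 (46.3%) at 12 h. Rescaled to the ERCC mean, the median percent left was 50% and 49.5% in control, 33.5% for D and 40% for E by 8 h, and 12.6%, 12.8%, 12.2% and 10.7% by 12 h. Leaving out each library gave 0 to 9 calls at 0 h (0.0105% to 10.7%), 6 to 21 across times (12.8% to 24.3%) and 7 to 23 between lines (15.4% to 40.9%). For the 8 h falls it gave 31 to 43 in control (66.8% to 85.3%) and 43 to 45 in knockdown (90.8% to 97.1%). For the 12 h falls it gave 45 to 45 in control (99% to 99.7%) and in knockdown (99.1% to 99.7%). Differences of change had 0 to 0 at 8 h (0% to 0.0735%) and at 12 h (0% to 0.042%). A mean of at least 5 and no filter removed no member.

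Replicate numbers were used as a replicate block for the changes with time. With it 10 members had a called difference of change by 8 h and 1 by 12 h, all lower in knockdown, and 2493 (26.2%) and 222 (2.33%) genes in all. Same-numbered control replicates had correlations of their deviations of 0.271, 0.065 and 0.138 between times. For lines D and E these were 0.777, 0.657 and 0.900. The labels do not say whether same-numbered control replicates share more than the number, and these correlations do not settle it. The signal carries no read depth, so no limit from depth could be given.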
